A study of Rattus norvegicus with 8 samples.

Results

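Marcks, Marcksl1, Gap43 and Basp1 encode membrane-bound substrates of protein kinase C that are abundant in growing axons. Their levels were followed in the forebrain and hindbrain of rat embryos at E12.5, either wild-type or Pax6 homozygous. Every probe set whose single gene symbol in the platform annotation was one of these 4 names was taken, which gave 8 of the 8799 probe sets of the array. Marcks had 6 of them, Gap43 had 1 (L21192_at), Basp1 had 1 (D14441_at), and no probe set listed there carried Marcksl1 as its only symbol. Of the 8, 6 were bright enough to be tested: 4 of Marcks, and those of Gap43 and Basp1. The genes were chosen by measured values of these arrays, namely the genotype difference of Marcks rc_AA859896_at in forebrain and that of Gap43 in hindbrain. All genotype differences of the members are therefore given as descriptions without a test, and only the difference between forebrain and hindbrain over both genotypes was tested. That contrast is orthogonal to the genotype contrasts in this balanced design, but it averages the same arrays, so it is no independent support for the members.

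The proteins share a mode of action. Marcks and Marcksl1 are myristoylated, hold the inner face of the plasma membrane through a basic effector domain, and release it when protein kinase C phosphorylates that domain or calmodulin binds it. Gap43 is a palmitoylated growth cone protein that binds calmodulin until protein kinase C phosphorylates it, and Basp1, also called NAP-22, is a myristoylated protein of similar behaviour. All are thought to gather the lipid PIP2 at the membrane and so to regulate the actin skeleton of growth cones, while Marcks is also made outside neurons. Pax6 is a transcription factor required for eye, nose and forebrain development, and the arrays were run to look for its downstream targets in the early brain.

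There were 4 groups of 2 arrays each: wild-type forebrain, Pax6 homozygous forebrain, wild-type hindbrain and Pax6 homozygous hindbrain. The labels name neither the Pax6 allele nor the strain, and leave unsaid whether replicate arrays hold different litters or animals. The p-values therefore cover array-to-array spread alone, and that may be technical. The forebrain part reached to the isthmus and also held the midbrain with the primordia of eye and nose. Below the isthmus, the hindbrain part ran back to the level of the forelimb and included pharyngeal arches. In tissue of this kind fewer cells of a type and less RNA per cell cannot be told apart. Values are the deposited probe set intensities, on a linear scale, and an array's noise level is taken as the size of its 5th percentile, 243 to 619.8.

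The labelled parts were checked against marker genes. Lhx2, a homeobox gene of forebrain and eye, lay between 7768 and 8692 on the forebrain arrays and between 1444 and 1801 on the hindbrain arrays. Hoxa5, of the posterior hindbrain and neck, was above noise on all 4 hindbrain arrays, at 1955 to 2723, and on no forebrain array. Muscle was present in the hindbrain part: Actc1, cardiac alpha-actin, lay between 13746 and 16999.6 there and above noise on no forebrain array. Pax6 itself (S74393_s_at) was above noise on all 8 arrays, and because the labels do not say what the allele removes, it checks nothing about the genotype labels. The replicate arrays correlated with r of 0.899 to 0.947 on the log2 scale, across probe sets.

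Marcks gave different answers at different probe sets. One probe set, rc_AA859896_at, was far lower in the Pax6 homozygous forebrain than in any other group. In forebrain it read 4077 and 4896 in the wild-type group against 1424 and 1203 in the Pax6 homozygous group. Hindbrain intensities were 3104 and 3633 (wild-type) and 3095 and 3240 (Pax6 homozygous). The 2 Pax6 homozygous forebrain arrays stood below the other 6 arrays, and both were above noise. The wild-type forebrain arrays were the highest of the 8, and the 2 hindbrain groups overlapped. The genotype difference is given as Pax6 homozygous minus wild-type on the log2 scale. It was -1.77 ± 0.22 (SE, n = 2 arrays each) in forebrain, a 3.41-fold lower level, and -0.08 ± 0.22 in hindbrain. The forebrain value is the one for which Marcks was chosen.

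In forebrain, 10.5% of the 5881 probe sets tested had both Pax6 homozygous arrays below both wild-type arrays. By limma 0.017% (1 probe set, Fabp7) passed an adjusted p of 0.05. These shares are background and no test of Marcks, which was chosen on this contrast. The forebrain difference of rc_AA859896_at stayed between -1.90 and -1.64 when any 1 forebrain array was left out. Hindbrain arrays do not enter that estimate, and the range is no further support for a value that was chosen. In hindbrain the sign of this probe set's genotype difference turned without wild-type hindbrain replicate 2 (0.03).

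The other tested Marcks probe sets did not show this separation. Probe set rc_AA899253_at read 18253 and 11854 in the wild-type and 12083 and 11781 in the Pax6 homozygous forebrain. In hindbrain it read 15987 and 11901 in wild-type and 18596 and 10829 in Pax6 homozygous embryos. Every group overlapped at least 1 other, and the arrays of a single group differed by as much as the groups did. Probe set rc_AA925762_at was at 8190 and 3766 in the forebrain of wild-type and 4878 and 4269 in that of Pax6 homozygous embryos. It was at 6624 and 4303 in wild-type hindbrain and 7393 and 6026 in Pax6 homozygous hindbrain. Here too the genotypes overlapped in both regions.

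Probe set rc_AA955167_s_at had its lowest array in the Pax6 homozygous forebrain and its highest in the Pax6 homozygous hindbrain. Forebrain readings were 8968 and 3516 for wild-type and 5844 and 2338 for Pax6 homozygous embryos. Hindbrain readings were 6951 and 5522 for wild-type and 9459 and 7958 for Pax6 homozygous embryos. In forebrain the genotypes overlapped, and in hindbrain both Pax6 homozygous arrays lay above both wild-type arrays, an arrangement found in 20.1% of the probe sets tested.

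The forebrain genotype differences of these probe sets were -0.30 ± 0.29 (rc_AA899253_at), -0.28 ± 0.36 (rc_AA925762_at) and -0.60 ± 0.49 (rc_AA955167_s_at) on the log2 scale. Their negative sign rested on wild-type forebrain replicate 1: without it they were 0.01, 0.28 and 0.07. That of rc_AA955167_s_at was also 0.06 without Pax6 homozygous forebrain replicate 2. In hindbrain the differences were 0.04 ± 0.29, 0.32 ± 0.36 and 0.49 ± 0.49, in the same order. The first of these was -0.35 without Pax6 homozygous hindbrain replicate 1.

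These same probe sets followed the replicate number in the labels. All 3 were brighter on replicate 1 than on replicate 2 in all 4 groups, which held for 26.1% of the probe sets tested. The log2 gap between the replicates ran from 0.04 to 1.35. For rc_AA859896_at the gap was -0.26 (wild-type) and 0.24 (Pax6 homozygous) in forebrain and -0.23 and -0.07 in hindbrain, so its replicates had no fixed order. In the Pax6 homozygous forebrain this gap was wider than those of rc_AA899253_at (0.04) and rc_AA925762_at (0.19). Within a replicate number the forebrain genotype difference of rc_AA859896_at was -1.52 and -2.03, and that of rc_AA955167_s_at was -0.62 and -0.59. For rc_AA925762_at it was -0.75 and 0.18, and for rc_AA899253_at -0.60 and -0.01.

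**Figure D1:**
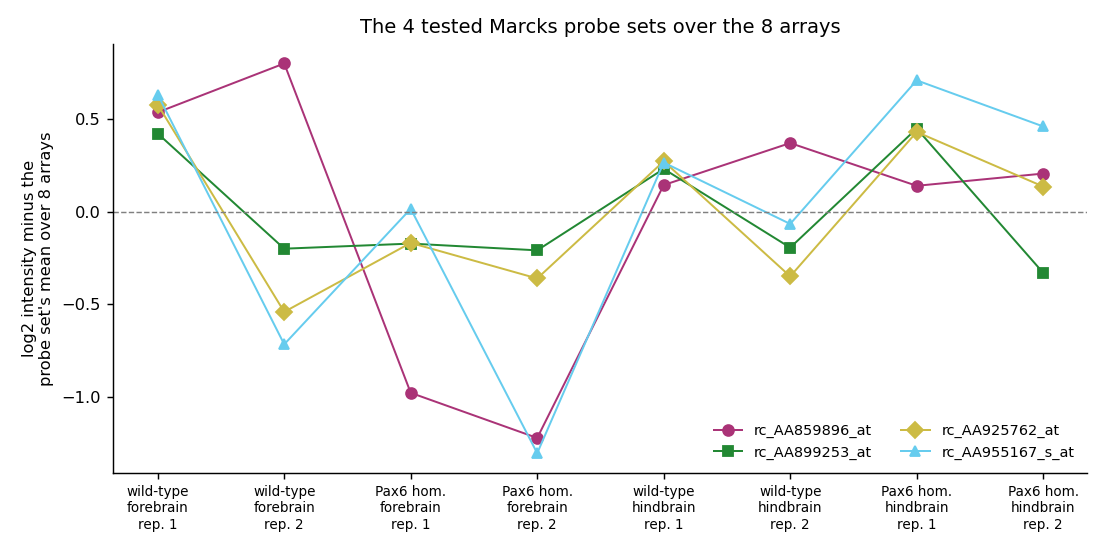
Log2 intensity of the 4 tested Marcks probe sets on each of the 8 arrays, each centred on its own mean over the arrays (y axis, log2 units; x axis, arrays by group and replicate; lines only join the points of a probe set). Probe set rc_AA859896_at is low on both Pax6 homozygous forebrain arrays and high on both wild-type forebrain arrays, whereas the other 3 are higher on replicate 1 than on replicate 2 in every group.

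As a measure of likeness, the root mean square difference between 2 centred log2 profiles over the 8 arrays was used, where smaller values are closer. Between rc_AA859896_at and the other Marcks probe sets it was 0.65 (rc_AA899253_at), 0.69 (rc_AA925762_at) and 0.70 (rc_AA955167_s_at). Between rc_AA899253_at and rc_AA925762_at it was 0.23, and from rc_AA955167_s_at these lay at 0.53 and 0.39. Probe set rc_AA899253_at was nearer to Basp1 (0.37) than to rc_AA955167_s_at. By this measure the Marcks probe set that separated the genotypes in forebrain was about as far from the others of its own gene as from Gap43 (0.72) and Basp1 (0.67). The measure also grows with a probe set's own range, which was 2.03 log2 units for rc_AA859896_at. Its Pearson r over the 8 arrays was 0.28, 0.23 and 0.44 with the other Marcks probe sets, in the order above, and 0.16 with Gap43 and with Basp1.

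The remaining Marcks probe sets gave no level. Probe set rc_AA955167_r_at, built from the same expressed sequence tag as rc_AA955167_s_at, was negative on all 8 arrays, between -6169 and -2528. Probe set rc_AI176597_at lay between -684 and 107.9. Neither was above noise on any array.

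Gap43 was highest in the wild-type hindbrain, and in the Pax6 homozygous hindbrain it lay near the forebrain levels. Its intensity was 8376 and 11392 in wild-type hindbrain and 5739 and 6202 in Pax6 homozygous hindbrain. Forebrain intensities were 5095 and 4975 (wild-type) and 5338 and 5689 (Pax6 homozygous). In order of their means the groups ran wild-type hindbrain, Pax6 homozygous hindbrain, Pax6 homozygous forebrain, wild-type forebrain, and no 2 neighbouring groups overlapped. The gaps between the lower 3 groups were small, 5689 to 5739 and 5095 to 5338 between their nearest arrays.

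On the log2 scale the genotype difference of Gap43 was -0.71 ± 0.19 in hindbrain, the value for which it was chosen, and 0.13 ± 0.19 in forebrain. Both Pax6 homozygous arrays were lower in hindbrain, as for 14.5% of the probe sets tested, and both were higher in forebrain, as for 737 of 5881. The 2 arrangements together were found in 0.85%. In hindbrain 0.017% (1 probe set, Fabp7) passed an adjusted p of 0.05 by genotype with limma. That share is background and no test of Gap43, which was chosen on this contrast. The difference between the parts in wild-type embryos was -0.96 (forebrain minus hindbrain), a 1.94-fold higher level in hindbrain, and -0.11 in Pax6 homozygous embryos. The hindbrain genotype difference lay between -0.93 and -0.49 when 1 hindbrain array was left out. Forebrain arrays do not enter that estimate, and the range is no further support for a value that was chosen.

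Basp1 had the same order of regions with smaller steps. Its intensity was 25054 and 25137 in wild-type hindbrain, 21080 and 21030 in Pax6 homozygous hindbrain, 16799 and 19271 in the wild-type and 18287 and 19799 in the Pax6 homozygous forebrain. The 2 forebrain groups overlapped, the Pax6 homozygous hindbrain lay above both, and the wild-type hindbrain above all. In hindbrain 14.5% of the probe sets tested had both Pax6 homozygous arrays below both wild-type arrays. The genotype difference was -0.25 ± 0.13 on the log2 scale in hindbrain and 0.08 ± 0.13 in forebrain, where it was -0.02 without wild-type forebrain replicate 1. Forebrain minus hindbrain was -0.48 for the wild-type and -0.15 for the mutant groups. The centred profiles of Gap43 and Basp1 differed by a root mean square of 0.23.

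Averaged over both parts, the genotype difference was negative at 5 of the 6 tested member probe sets, against 45.7% of all probe sets tested. The median was -0.11 for the members and 0.03 over all probe sets tested. Of all probe sets 0.034% passed an adjusted p of 0.05 in that comparison. Marcks rc_AA859896_at stood at -0.93 ± 0.16, and all 6 overlapped between the genotypes with the parts pooled.

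**Figure D2:**
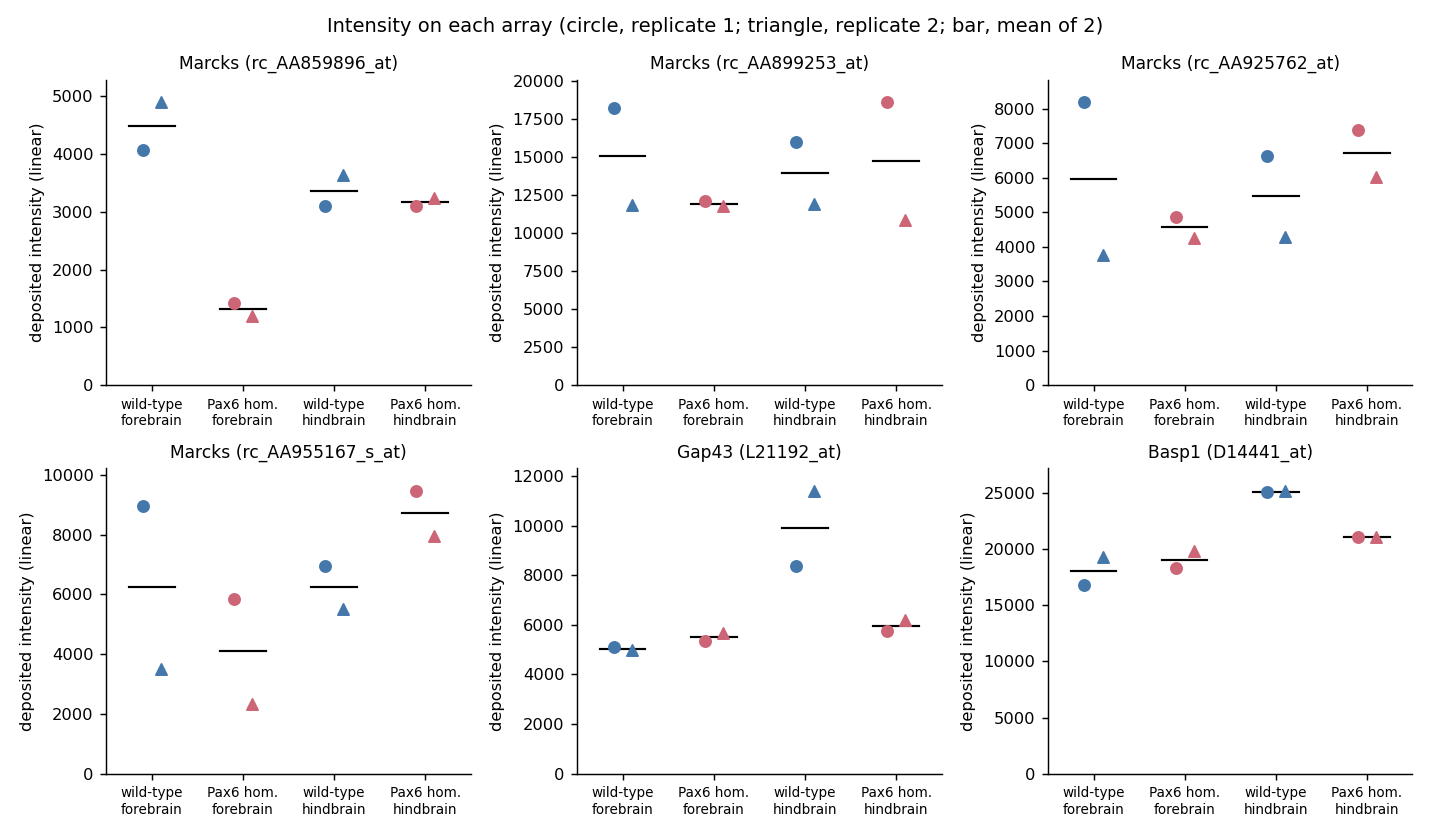
Deposited intensity (linear, y axis from 0) of the 6 tested probe sets of Marcks, Gap43 and Basp1 in each group (x axis; circle, replicate 1; triangle, replicate 2; bar, mean of the 2 arrays; blue, wild-type; red, Pax6 homozygous). The 2 Pax6 homozygous forebrain arrays of Marcks rc_AA859896_at lie at 1424 and 1203, and the wild-type hindbrain arrays of Gap43 and Basp1 lie above every other array of those genes.

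Forebrain and hindbrain were compared over both genotypes with limma's moderated test, adjusted by the Benjamini-Hochberg method over all 5881 probe sets. Averaged over the genotypes, all 6 member probe sets had a negative difference, meaning higher in hindbrain, as had 53.2% of all probe sets tested. The median was -0.37 on the log2 scale for the members and -0.02 over all probe sets tested. Within the wild-type groups only 3 of the 6 were negative, those of Gap43, Basp1 and Marcks rc_AA955167_s_at (-0.14). The other Marcks probe sets were positive in wild-type embryos, at 0.41 (rc_AA859896_at), 0.09 (rc_AA899253_at) and 0.06 (rc_AA925762_at), and negative in Pax6 homozygous embryos, at -1.27, -0.25 and -0.55. None of the 6 passed at an adjusted p of 0.05, where 1.51% of all probe sets tested did. At an unadjusted p under 0.05 the members numbered 3 of 6, against 8.09% of all probe sets. These were Gap43, Basp1 and Marcks rc_AA859896_at, and the first and the last were chosen on arrays that enter this average.

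Gap43 differed by -0.54 ± 0.14 (SE, 4 arrays against 4), 1.45-fold higher in hindbrain, with an adjusted p of 0.136 from limma. Basp1 differed by -0.31 ± 0.09, 1.24-fold higher in hindbrain, with an adjusted p of 0.242 from limma. For both genes all 4 hindbrain arrays lay above all 4 forebrain arrays, which was seen for 4.37% of the probe sets tested. Marcks rc_AA859896_at differed by -0.43 ± 0.16 (adjusted p = 0.443 from limma), an average of opposite signs in the 2 genotypes, and here the parts overlapped. The other Marcks probe sets differed by -0.69 ± 0.35 (rc_AA955167_s_at), -0.25 ± 0.25 (rc_AA925762_at) and -0.08 ± 0.21 (rc_AA899253_at), with adjusted p-values from limma of 0.692, 0.962 and 0.999. The difference of rc_AA955167_s_at ranged from -1.02 without wild-type or Pax6 homozygous forebrain replicate 1 to -0.35 without wild-type forebrain replicate 2, and was -0.36 without Pax6 homozygous forebrain replicate 2. The sign of rc_AA899253_at was positive in 3 leave-outs: leaving out replicate 2 of wild-type forebrain gave 0.08, replicate 1 of wild-type hindbrain gave 0.03 and replicate 1 of Pax6 homozygous hindbrain gave 0.12. The sign of rc_AA925762_at turned without wild-type forebrain replicate 2 (0.03).

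**Figure D3:**
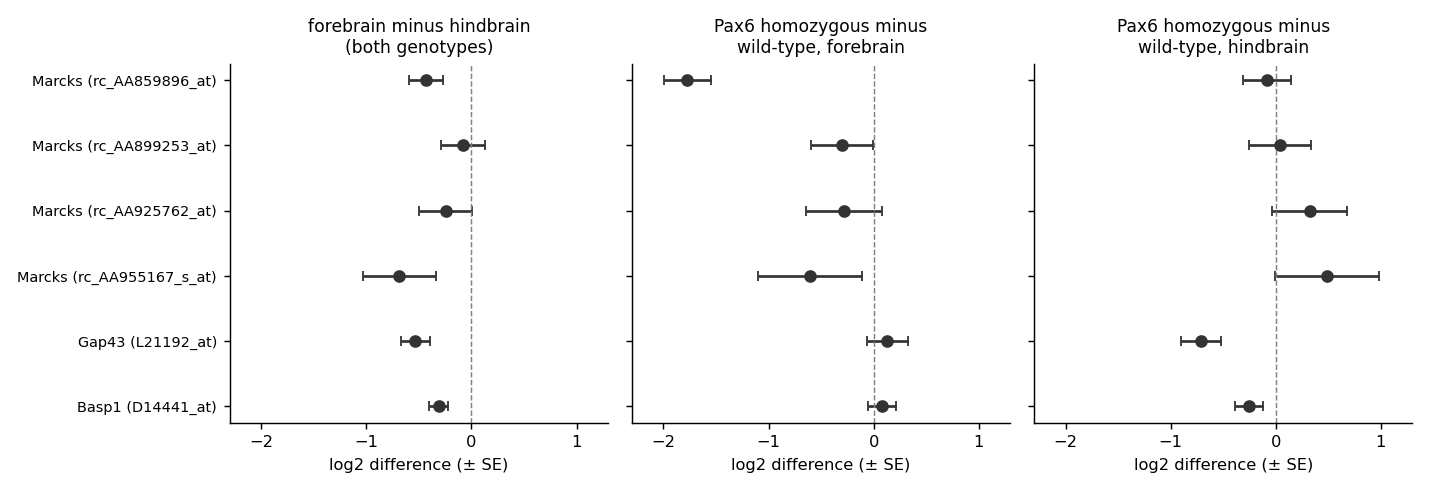
Log2 differences (x axis) with limma's standard errors (bars) for the 6 tested probe sets (y axis): forebrain minus hindbrain over both genotypes, and Pax6 homozygous minus wild-type in each part. All 6 region differences are negative, Marcks rc_AA859896_at stands at -1.77 in forebrain, and Gap43 at -0.71 in hindbrain.

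Genes of growth cones and neurite outgrowth were set beside the members. Of 31 genes listed, 21 were on the array and 31 probe sets of 18 genes were tested. In the region comparison 26 of the 31 probe sets had a negative difference (median -0.42), against 53.2% of all probe sets tested. As higher in hindbrain 5 passed and as higher in forebrain none, against 1.22% and 0.289% of all probe sets tested. Dpysl4, a collapsin response mediator family member, lay between 2543 and 2922 on the forebrain arrays and between 5721 and 9163 on the hindbrain arrays (log2 difference -1.44 ± 0.15, adjusted p = 0.00162 from limma). Rtn1, a reticulon of neuronal endoplasmic reticulum, passed at both its probe sets (-1.24 ± 0.13 and -1.09 ± 0.13). The others were Ncam1, the neural cell adhesion molecule (-1.49 ± 0.25), and a probe set of Cd24, a surface glycoprotein (-0.60 ± 0.10). Both were named after their values were seen, to complete the count. The other tested Cd24 probe sets did not pass (-0.27 ± 0.13 and -0.36 ± 0.16). The 5 calls became 3 without an intensity trend and 3 or 4 when 1 array was left out. They were 3 without any 1 of the 4 hindbrain arrays or wild-type forebrain replicate 2.

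The genotype comparisons of this list gave no calls by limma, with 1 of 31 probe sets at an unadjusted p under 0.05 in forebrain and 2 of 31 in hindbrain, where 2.92% and 4.49% of all probe sets tested had one. In hindbrain 20 of 31 probe sets had a negative difference (median -0.20), against 45.5% of all probe sets, whose median was 0.04. In forebrain 14 of 31 were negative (median 0.05), against 48.5% of all probe sets.

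Markers of neurons were measured beside them, in a list that shares genes with others. Map2 and Mapt were also in the growth cone list, and Snap25 was also among the further substrates below. None of their probe sets passed by region. Of 25 genes listed, 18 were on the array, and Chat, Scg2 and Syt1 were above noise on no array. In the region comparison 23 of 29 tested probe sets had a negative difference, against 53.2% of all probe sets tested. As higher in hindbrain 7 passed, against 1.22% of all probe sets tested. These were the neurofilament genes Nefl (AF031880_at, -2.61 ± 0.16, and M25638_s_at) and Nefm (-2.78 ± 0.18), both probe sets of Ina, alpha-internexin (-1.62 ± 0.12 and -1.42 ± 0.14), Prph and Sncg. Prph (-2.61 ± 0.34) and Sncg (-1.46 ± 0.25) were named after their values were seen, to complete the count. All but Sncg are intermediate filament genes. The 6 positive differences, none of which passed, were at probe sets of Uchl1 (0.27 to 0.37), Map2 (0.02 and 0.09) and Slc18a3 (0.70). Leaving out 1 array gave 5 to 9 calls in place of the 7, and the replicate number as a block gave 11. The summed intensity of the list was 154700 to 162074 on the wild-type and 116994 to 121649 on the Pax6 homozygous hindbrain arrays. The forebrain sums were 77918 to 79190 (wild-type) and 69314 to 79879 (Pax6 homozygous).

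These sums were highest in wild-type hindbrain, next in Pax6 homozygous hindbrain and lowest in forebrain, as for Gap43 and Basp1. Within forebrain the sums overlapped between the genotypes, as for Basp1, whereas both Gap43 arrays were higher in the Pax6 homozygous group. Bright probe sets count most in such sums. Nefm alone read 20918 and 22237 in wild-type hindbrain and 2891 and 3042 in wild-type forebrain. Ina (rc_AA875659_s_at) read 17269 and 15727 in wild-type and 10302 and 9203 in Pax6 homozygous hindbrain. The hindbrain genotype difference was negative at 24 of 29 neuronal probe sets (median -0.25), against 45.5% of all probe sets tested. Muscle genes also moved with the region: 5 of 18 probe sets passed as higher in hindbrain, against 1.22% of all probe sets tested, and their sums were 4650 to 8731 on forebrain and 33426 to 40685 on hindbrain arrays. The part of neurons and of muscle in the region differences of the members was not tested.

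In forebrain, where Marcks rc_AA859896_at was lower in the Pax6 homozygous group, several marker sums differed between the genotypes. All 11 probe sets of blood genes had a negative genotype difference there (median -0.45), against 48.5% of all probe sets tested. The summed intensity of the blood genes was 193466 to 207522 in wild-type and 160314 to 162105 in Pax6 homozygous forebrain. Markers of forebrain, eye and midbrain summed to 16443 to 17112 in wild-type and 9814 to 10648 in Pax6 homozygous forebrain. Most of that gap lay in the lens crystallins Cryaa, at 4919 and 5254 against 1303 and 683.3, and Crybb3, at 1779 and 2240 against 468.8 and 156.2. Lhx2 differed by -0.09 ± 0.20 on the log2 scale, Dlx5 by -0.52 ± 0.42 and Otx1 by 0.30 ± 1.56. Progenitor and radial glia markers were negative at 23 of 36 probe sets (median -0.07) and summed to 338799 to 340229 in wild-type and 322987 to 330726 in the mutant forebrain. Fabp7 was the 1 probe set of this list that passed by limma there. It read 3117 and 3934 against 528.3 and 471.6 (-2.81 ± 0.23), and differed by -3.72 ± 0.23 in hindbrain. Id3 (rc_AI171268_at) weighs on the sums, at 25039 and 36491 against 22754 and 11782 in forebrain. Its mean there fell from 30765 to 17268, more than the mean progenitor sum fell. Without this probe set the mean progenitor sum was therefore not lower in the Pax6 homozygous forebrain. Mesenchymal markers were negative at 16 of 26 (median -0.09), and their sums overlapped between the genotypes. In hindbrain, where rc_AA859896_at differed by -0.08 ± 0.22, blood sums were 169156 to 179097 (wild-type) and 155047 to 155624 (Pax6 homozygous). Progenitor sums there were 335996 to 370656 and 310654 to 319068, and mesenchymal sums 170469 to 170629 and 148085 to 161511. Forebrain, eye and midbrain markers went the other way in hindbrain, at 2853 to 3099 and 3226 to 3587. The part of any of these markers in the Marcks forebrain difference was not tested.

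None of the 4 lists of enzymes, partners and further substrates had a probe set that passed by limma in the region or genotype comparisons. By region, 5 of their 72 probe sets had an unadjusted p under 0.05, and by genotype 1 in forebrain and 0 in hindbrain did. Over all probe sets tested the shares were 8.09%, 2.92% and 4.49%. Of 12 genes of protein kinase C and related kinases, 7 were on the array and 10 probe sets were tested. Their region differences were negative at 8 of 10 (median -0.17), against 53.2% of all probe sets tested. Prkca was above noise on no array. Prkch (rc_AA799981_at) was above noise on all 8 arrays, at 659.7 to 1537 in forebrain and 1176 to 2550 in hindbrain, and the parts overlapped (-0.65 ± 0.32, adjusted p = 0.661 from limma). Prkce (M18331_g_at) had a larger fitted difference, -2.49 ± 0.65, but was above noise on 2 of 8 arrays.

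Among genes that make or turn over PIP2 and diacylglycerol, 23 probe sets were tested and 16 had a negative region difference (median -0.11). In forebrain the genotype difference was negative at 10 of 23. Over all probe sets tested, 53.2% were negative by region and 48.5% by genotype in forebrain. Plcb4 (L15556_at), a phospholipase C, read 833.7 and 675.6 in wild-type forebrain. In the Pax6 homozygous forebrain neither array exceeded noise at this probe set (122.3 and 244.3). The other tested Plcb4 probe set, AF027571_s_at, had a forebrain genotype difference of 0.19 ± 0.71 against -2.12 ± 0.72 here. Pitpnb (rc_AA998446_s_at), a phosphatidylinositol transfer protein, read 2805 and 2333 in wild-type and 3456 and 3786 in Pax6 homozygous forebrain, and was higher without overlap in the Pax6 homozygous group there, as were 737 of 5881 probe sets.

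Calmodulin, which binds all 4 proteins, was read through Calm2 (M17069_at). It lay between 29993 and 36688 on the forebrain arrays and between 27738 and 33311 on the hindbrain arrays. The parts overlapped (0.15 ± 0.09, adjusted p = 0.797 from limma). The list held 15 tested probe sets of calmodulin, calcineurin, calmodulin-dependent kinases and the calmodulin-binding proteins Nrgn and Pcp4. Of these, 12 had a negative region difference (median -0.23), against 53.2% of all probe sets tested. Nrgn is also among the further substrates below. Ppp3ca, the catalytic subunit of calcineurin, which dephosphorylates Gap43, differed by -0.37 ± 0.19 (adjusted p = 0.725 from limma).

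Further substrates and membrane skeleton proteins numbered 25 tested probe sets, 19 of them with a negative region difference (median -0.11). Over all probe sets tested that share was 53.2%. Snap25 (AB003991_at), of the synaptic fusion machinery, lay between 1205 and 1557 in forebrain and between 1669 and 2632 in hindbrain. It did not pass (-0.59 ± 0.22, adjusted p = 0.431 from limma), and its lack of overlap was shared by 4.37% of the probe sets tested. In the genotype comparisons this list had 12 of 25 negative in forebrain and 13 of 25 in hindbrain, against 48.5% and 45.5% of all probe sets.

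**Figure D4:**
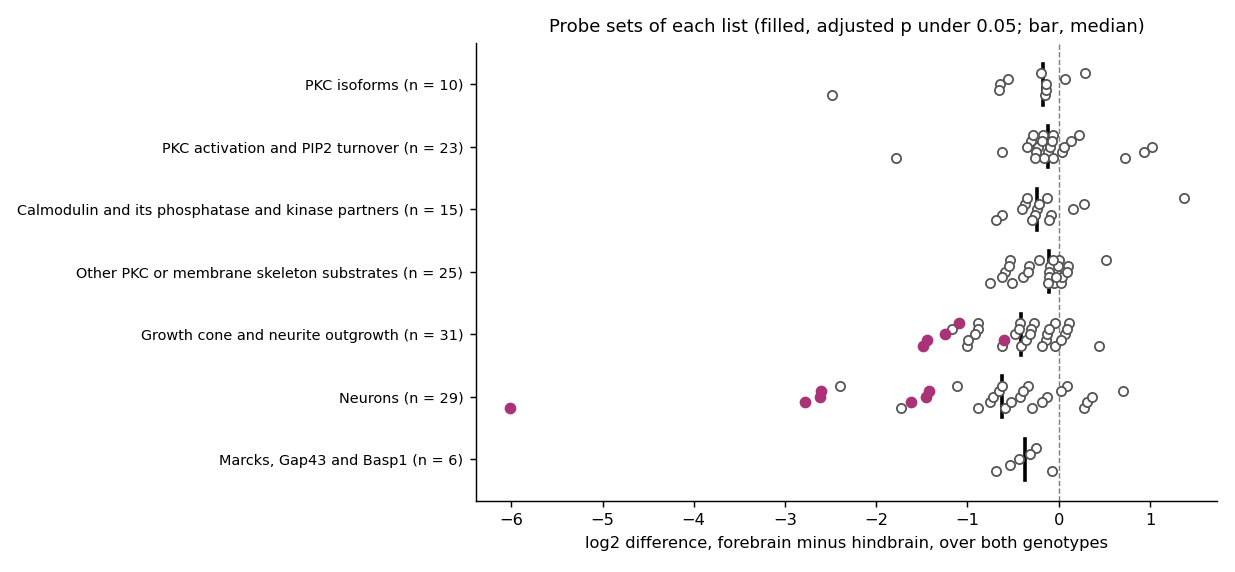
Log2 difference, forebrain minus hindbrain over both genotypes (x axis), for every tested probe set of 5 pathway lists, the neuron list and the members (y axis; filled circles, adjusted p under 0.05; vertical bars, medians). The 5 growth cone and 7 neuronal probe sets that passed were all higher in hindbrain, and the 6 member probe sets, median -0.37, include none that passed.

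The named genes with profiles closest to the members were found by the same root mean square difference. The search ran over the tested probe sets with 1 symbol (4846), less those of the member's own gene. A search of that size over 8 arrays can yield close profiles for any gene, so those listed are descriptions only. Closest to Gap43 were Scg3, a granin (0.17), Elavl4, a neuronal RNA-binding protein (0.19), and Col2a1, a collagen of cartilage (0.20). Scg3 read 1714 and 1661 in wild-type hindbrain and between 889.8 and 1010 on the other 6 arrays. Closest to Basp1 were Wsb2 (0.05), Cited2 (0.07) and Coro7 (0.10). Wsb2 read 6221 and 6255 in wild-type hindbrain and between 4591 and 5543 on the other 6 arrays.

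Closest to Marcks rc_AA859896_at were Cd72 (0.31), Id3, which blocks DNA binding by proneural factors (0.40), and Cd79b (0.40). Cd72 was above noise on 1 of 2 arrays in each hindbrain group and on no forebrain array, and Cd79b on no array, so their likeness is one of values near the noise. This Id3 probe set (rc_AI171268_at) read 25039 and 36491 in wild-type and 22754 and 11782 in Pax6 homozygous forebrain, a difference of -0.88 ± 0.31 on the log2 scale. The other Id3 probe set, AF000942_at, differed by -0.14 ± 0.24. Closest to the other Marcks probe sets were Igfals, Adcyap1 and Il13 (0.11 to 0.13, rc_AA899253_at), Sos1, Sfxn3 and Il15 (0.14 to 0.16, rc_AA925762_at), and Ap2b1, Cacna1a and Fxyd1 (0.20 each, rc_AA955167_s_at).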

How the data were processed

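Biotinylated cRNA was read on Affymetrix rat genome arrays, per the labels' protocols. The authors deposited 1 linear intensity per probe set and array. How they were computed and scaled is not given in the sources used here. Of the values 18.3% to 22.3% per array were negative, and means trimmed by 2% at each end lay between 2504.1 and 2504.8, so the authors' scaling was kept. Symbols came from the platform annotation (7018 probe sets with 1 symbol, 308 with several). The 59 array controls were left out. Values under the pooled 25th percentile (45.9) were set to it before log2. Testing required 2 or more arrays over the pooled 40th percentile (255). limma 3.58.1, run in R 4.3.3, fitted the 4 group means over all 8 arrays with an intensity trend, 4 residual and 4.63 prior degrees of freedom. The number of arrays limits the precision. Marker sums add tested probe sets with negative values at 0. On simulated data with 50 probe sets changed per size, the region test recovered 14% at 0.5, 52% at 1, 80% at 2 and 92% at 3 on the log2 scale, with 7 false calls. The simulated noise was normal, with limma's fitted spread, and independent between arrays. It had no floor and no shared deviation of same-numbered arrays, so recovery and false calls on the real arrays may differ.

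Alternatives were another floor, no filter, no trend, quantile normalization, the replicate block, the arrays of 1 part alone and leaving out each array. Named genes were the members, up to 3 probe sets per list with the smallest p in each contrast, Pax6, and the 3 closest profiles per member. Members and lists were chosen with earlier results of these data known.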

Additional observations from a re-analysis of the deposited data

Results flagged for a closer look

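The genotype difference of Gap43 (L21192_at) had opposite directions in the 2 parts. Both Pax6 homozygous arrays lay above both wild-type arrays in forebrain and below both in hindbrain. The forebrain difference minus the hindbrain difference was 0.84 ± 0.27 on the log2 scale, and it lay between 0.62 and 1.06 when 1 array was left out. This difference was not tested, because Gap43 was chosen for its genotype difference in hindbrain. The forebrain difference alone was within its standard error.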

How the results depend on the processing

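In 13 alternatives, no member probe set passed in the region comparison (by limma, 0 of 6). The adjusted p of Gap43 lay between 0.0615 (replicate block) and 0.49, and that of Basp1 between 0.0779 (quantile normalization) and 0.642, with a negative sign in all 13. Same-numbered arrays deviated together from their group means (r of 0.275 to 0.465), but the labels do not say that the number marks a shared litter or day. With the replicate number as a block 139 probe sets passed by region instead of 89, and 2 instead of 1 by genotype in hindbrain. Leaving out 1 array gave 37 to 82 probe sets by region (41 without Pax6 homozygous hindbrain replicate 1, 52 without wild-type hindbrain replicate 2, 37 without Pax6 homozygous hindbrain replicate 2), 0 to 5 by genotype in forebrain, 1 to 3 in hindbrain, 1 to 5 over both regions and 0 to 1 in the interaction. With a floor at the median of all values the genotype counts in forebrain, in hindbrain, over both and in the interaction were 3, 15, 10 and 8 (main values 1, 1, 2 and 0, with 112 at an unadjusted p under 0.05 in the interaction by limma). Without a filter they were 0, 22, 19 and 13, and without an intensity trend 0 in forebrain, 5 in hindbrain and 4 in the interaction. The 4 arrays of a part alone gave 0 in forebrain and 2 in hindbrain. The cause of these moves was not tested. No detection calls are in the table, so a level near noise is not distinguished from none.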
